A study of Sus scrofa with 12 samples.

Results

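In primary porcine arterial ECs kept for 48 h under laminar wall shear stress (WSS), 10 genes of the Wnt pathway were followed. They are the ligands WNT9B and WNT5A, the Frizzled receptors FZD4, FZD6 and FZD8, the co-receptors LRP5 and LRP6, the secreted inhibitor SFRP1, the feedback target AXIN2 and the transcription factor gene TCF4. They were taken by symbol with measured values of these cultures in view, and all 10 were found among the 21153 genes of the count table. Their values at 2 vs. 30 and 80 vs. 30 dyne/cm2 are therefore a description of the genes that were picked, not a test.

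Wnt proteins are secreted, lipid-modified ligands. In the canonical branch a ligand bridges a Frizzled receptor and LRP5 or LRP6, the complex that degrades β-catenin is switched off, and β-catenin enters the nucleus, where it drives target genes through TCF/LEF factors. Other branches act without β-catenin, among them the planar polarity branch, which orients cells within a sheet. In the vessel wall the pathway is best known for the formation of brain and retinal vessels, for which endothelial FZD4 and LRP5 are required.

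ECs of 3 pigs were exposed to 2 dyne/cm2 (low aneurysmal WSS), 30 dyne/cm2 (physiological WSS) or 80 dyne/cm2 (supra-high aneurysmal WSS). From each donor came 1 culture under low WSS, 1 under supra-high WSS and 2 under physiological WSS, which makes 4 groups of 3 cultures and 12 libraries. The cultures taken as controls of low WSS are called set 1 here and those taken as controls of supra-high WSS set 2. The labels do not state this pairing. The labels name no genetic change and no agent other than flow. The study's methods give coronary arteries of 8-month-old slaughterhouse pigs as their source, whereas the deposited labels call the cells aortic. The labels also give another flow slide and seeding density for the 80 dyne/cm2 cultures and their controls than the methods do, without naming the set of these controls. If the sets differed in slide and density, comparisons between the sets or with exchanged controls carry that difference too. Its part was not tested.

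Libraries held 29606854 to 41058902 counted reads. Levels are given as CPM, the reads of a gene per 1000000 counted reads, and fold changes come from edgeR fits with the donor as a block. They carry their standard error (SE). A gene was called regulated where it changed 2-fold or more with an adjusted p, taken over all genes tested, under 0.05, and genes under 1 CPM in 4 or more of the 6 libraries compared were not tested. Of 10 endothelial marker genes, 8 were in the table, and all 8 stood above 1 CPM in all 12 libraries. Their summed level was 5270 to 6350 CPM at 2 dyne/cm2, 7670 to 8430 and 6920 to 8100 CPM in sets 1 and 2, and 8810 to 9230 CPM at 80 dyne/cm2. The 10 smooth muscle and fibroblast markers summed to 14.6 to 72.5 CPM at 2 dyne/cm2, 4.68 to 21.3 and 3.87 to 18.8 CPM in sets 1 and 2, and 3.84 to 12.6 CPM at 80 dyne/cm2. None of these 10 stood above 1 CPM in all libraries, DES was at 0 throughout, and ACTA2, MYH11, CNN1 and TAGLN stayed under 1 CPM. The 6 leukocyte markers summed to 10.9 to 14.8 CPM at 2 dyne/cm2 and to 16 to 32.1 CPM elsewhere, with PTPRC, CD3E and LYZ at or near 0. The other 3, CD14, CD68 and CD79A, stood above 1 CPM in all 12 libraries. CD68 was called down at 2 dyne/cm2 (log2 fold change -1.17), while CD14 and CD79A were not called (0.11 and 0.27). The endothelial and leukocyte sums were lower in every culture at 2 dyne/cm2 than in any other, and the smooth muscle and fibroblast sum reached higher there with some overlap. Their part in the values given below was not tested. RNA was measured in whole cultures, so fewer cells of one kind and less RNA per cell cannot be told apart.

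The ligand WNT9B (ENSSSCG00000035524, chromosome 12, 17709046 to 17733434 on Sscrofa11.1) was below 1 CPM in every culture under low WSS and higher than in its controls under supra-high WSS. This ligand acts through β-catenin in embryonic organs, where it is best known from the kidney. In donors 1, 2 and 3 its level was 0.668, 0.581 and 0.627 CPM at 2 dyne/cm2. It was 149, 75.1 and 380 CPM in set 1 and 77.9, 39.6 and 191 CPM in set 2. The cultures at 80 dyne/cm2 had 262, 230 and 748 CPM. No culture at 2 dyne/cm2 came near any other culture, and all 3 cultures at 80 dyne/cm2 lay above the 3 of set 2. Against set 1 the values at 80 dyne/cm2 overlapped, through donor 3 of set 1.

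The WNT9B levels at 2 dyne/cm2 rest on 26, 18 and 19 reads. Their exact Poisson 95% intervals, which cover counting error only, were 0.436 to 0.979, 0.344 to 0.918 and 0.378 to 0.98 CPM. The 9 other libraries held between 1314 and 23780 reads each. Group means were 0.625 ± 0.0437 CPM at 2 dyne/cm2, 201 ± 159 CPM in set 1, 103 ± 78.6 CPM in set 2 and 413 ± 291 CPM at 80 dyne/cm2 (SD, n = 3). The donors kept one order at 30 and 80 dyne/cm2, with donor 3 highest and donor 2 lowest in all 3 of those groups. At 2 dyne/cm2 the counting intervals of the donors overlapped. The group order 2, set 2, set 1 and 80 dyne/cm2 held in each of the 3 donors.

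The log2 fold change of WNT9B at 2 vs. 30 dyne/cm2 was -8.09 (SE 0.41), a 272-fold lower level. By donor it was -7.8, -7.02 and -9.24. At 80 vs. 30 dyne/cm2 the log2 fold change was 2.08 (SE 0.15), a 4.22-fold higher level, and by donor the rise was 3.36-, 5.81- and 3.92-fold. WNT9B passed the thresholds in both comparisons, and it entered the test at 2 dyne/cm2 only through its controls. The call at 80 dyne/cm2 was lost without the replicate block (log2 fold change 2.00, SE 0.72) and against set 1 (1.13, SE 0.17). Reads were counted without a stated strand, and the span of the RefSeq gene LOC102167870 overlaps that of WNT9B. Whether exons of the 2 genes overlap was not examined, so a part of LOC102167870 in the WNT9B reads was not tested.

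**Figure D1:**
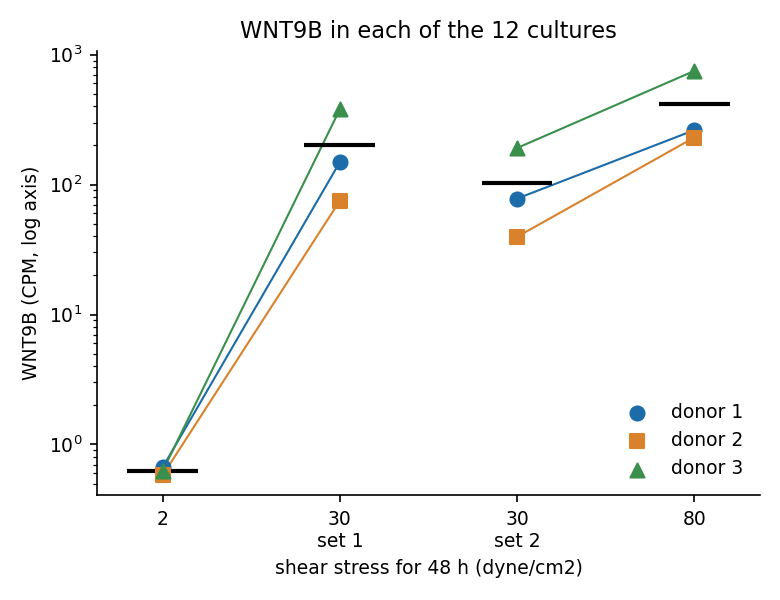
WNT9B level in CPM (log axis) in the 12 cultures by shear stress (dyne/cm2), with 1 symbol per donor, lines between cultures of a donor compared with each other, and black bars for the mean of 3 cultures. All 3 cultures at 2 dyne/cm2 lie under 1 CPM, and in each donor the level at 80 dyne/cm2 lies above that in set 2.

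The 2 sets at 30 dyne/cm2 were also compared with each other. Their libraries are the controls of both comparisons above, and a gene picked for a fall against set 1 and a rise against set 2 is favoured to be high in set 1 and low in set 2. The values of WNT9B between the sets are therefore not free of the choice of genes and are given as a description. WNT9B was lower in set 2 than in set 1 in all 3 donors, at 0.524, 0.527 and 0.502 times the level in set 1. Its log2 fold change was -0.94 (SE 0.06), with an adjusted p of 0.0261 in the fit over all genes (edgeR's quasi-likelihood test with Benjamini-Hochberg adjustment). Only 2 of 11163 genes tested (0.0179%) had an adjusted p under 0.05 between the sets, and the other was IL1A, the gene of interleukin 1α, with a log2 fold change of -1.44. IL1A is named after its value was seen. Across the alternatives the adjusted p of WNT9B ran from 6.93e-21 with DESeq2 to 0.99 without the replicate block. It was 0.229 without replicate 1, 0.0593 without replicate 3 and 0.188 with the dispersion of all 12 libraries. The number of genes with an adjusted p under 0.05 between the sets varied as well. It was 467 with DESeq2, 445 without replicate 2 and 161 with no filter. It was 0 without the replicate block, without replicate 1 and with the dispersion of all 12 libraries. The other 8 genes tested between the sets had adjusted p of 0.164 to 0.68, with log2 fold changes from -0.36 for AXIN2 to 0.53 for FZD8.

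Against these levels the second ligand, WNT5A, was low and uneven. WNT5A (ENSSSCG00000035859, chromosome 13, 37344684 to 37367215) is the best known ligand of the branches that act without β-catenin. Its level was 1.1, 1.19 and 2.15 CPM at 2 dyne/cm2, 0.916, 2.48 and 1.38 CPM in set 1, 1.56, 1.93 and 2.39 CPM in set 2, and 1.15, 3.08 and 2.08 CPM at 80 dyne/cm2. These values rest on 37 to 100 reads per library, and all groups overlapped. The donors went different ways, with 2 of 3 higher at 2 dyne/cm2 and 1 of 3 higher at 80 dyne/cm2. Log2 fold changes were -0.04 (SE 0.39) and 0.03 (SE 0.26). LOC102162847 overlaps the gene.

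Among the receptors, FZD4 and FZD8 were higher under low WSS and FZD6 was not distinguishable between groups. FZD4 (ENSSSCG00000014920, chromosome 9, 20714995 to 20721460) binds Wnt ligands and Norrin. It stood at 1160, 1150 and 1490 CPM at 2 dyne/cm2 against 702, 698 and 533 CPM in set 1. It stood at 699, 823 and 622 CPM in set 2 and at 550, 705 and 601 CPM at 80 dyne/cm2. Every culture at 2 dyne/cm2 lay above all 9 other cultures, and those 9 overlapped. The log2 fold change at 2 dyne/cm2 was 0.99 (SE 0.19), with 1.65-, 1.64- and 2.79-fold higher levels by donor. That is a 1.98-fold level, so FZD4 met the threshold on the adjusted p and just missed that on the fold. Without replicate 1 it met both (log2 fold change 1.12, SE 0.26). At 80 dyne/cm2 the log2 fold change was -0.21 (SE 0.10), lower in 3 of 3 donors and under the thresholds.

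FZD8 (ENSSSCG00000033001, chromosome 10, 58093980 to 58096790) had the largest fold change of the 3 at 2 dyne/cm2 and is a further receptor of canonical ligands. Its level was 24.5, 10.6 and 13.5 CPM at 2 dyne/cm2 and 5.45, 5.08 and 2.46 CPM in set 1. It was 8.88, 5.57 and 4.07 CPM in set 2 and 4.35, 4 and 3.15 CPM at 80 dyne/cm2. The cultures at 2 dyne/cm2 again lay above all others. FZD8 rose 3.75-fold at 2 dyne/cm2 (log2 fold change 1.91, SE 0.30), by 2.17, 1.06 and 2.46 on the log2 scale in the 3 donors, and passed both thresholds. At 80 dyne/cm2 its log2 fold change was -0.64 (SE 0.18), lower in 3 of 3 donors without passing. Against set 1 that value shrank to -0.12 (SE 0.22), as FZD8 was higher in set 2 than in set 1 in all donors. LOC110255709 overlaps FZD8.

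FZD6 (ENSSSCG00000006052, chromosome 4, 33811159 to 33844556), a receptor tied to planar polarity, showed no shift beyond its spread. It stood at 86, 83.7 and 112 CPM at 2 dyne/cm2, 97.4, 97 and 103 CPM in set 1, 93.7, 84.6 and 102 CPM in set 2, and 68.5, 87.7 and 111 CPM at 80 dyne/cm2. All groups overlapped. Log2 fold changes were -0.07 (SE 0.10) at 2 dyne/cm2 and -0.10 (SE 0.12) at 80 dyne/cm2.

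The paired co-receptors LRP5 and LRP6 differed from each other in how far their levels varied. LRP5 (ENSSSCG00000012885, chromosome 2, 4533721 to 4653997) stood at 154, 122 and 281 CPM at 2 dyne/cm2 and 152, 82.7 and 143 CPM in set 1. It stood at 177, 92.3 and 174 CPM in set 2 and 105, 83.8 and 136 CPM at 80 dyne/cm2. The groups overlapped, but within donors LRP5 was higher at 2 dyne/cm2 and lower at 80 dyne/cm2 than its control in 3 of 3. Donor 1 hardly moved at 2 dyne/cm2 (1.01-fold), and donor 3 moved 1.96-fold. The log2 fold changes of 0.53 (SE 0.19) and -0.42 (SE 0.12) passed neither threshold. LOC100738812 overlaps LRP5.

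LRP6 (ENSSSCG00000000625, chromosome 5, 60149041 to 60318719) varied least of the 10 genes by the ratio of its highest to its lowest value. Its 12 values lay between 65 and 83.8 CPM, with group means of 78.2 ± 4.9 CPM at 2 dyne/cm2, 80.2 ± 4.63 CPM in set 1, 77.1 ± 7.91 CPM in set 2 and 73 ± 7.15 CPM at 80 dyne/cm2 (SD, n = 3). Its log2 fold changes were -0.02 (SE 0.09) and -0.08 (SE 0.08).

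The secreted inhibitor SFRP1 (ENSSSCG00000025822, chromosome 17, 10436414 to 10489773), which binds Wnt ligands outside the cell, was at the edge of detection. It had 0, 2 and 3 reads at 2 dyne/cm2, 7, 3 and 2 in set 1, 3, 3 and 2 in set 2, and 7, 4 and 1 at 80 dyne/cm2. No library exceeded 0.187 CPM. It did not reach the level needed for a test, no fold is given, and a difference between groups was not detectable at this depth.

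AXIN2 (ENSSSCG00000017265, chromosome 12, 12311293 to 12343207) encodes a scaffold of the β-catenin degradation complex and is a standard target of canonical signalling. Its level was 5.99, 2.74 and 4.46 CPM at 2 dyne/cm2, 5.77, 4.19 and 4.23 CPM in set 1, 4.26, 2.29 and 4.71 CPM in set 2, and 4.56, 4.8 and 3.9 CPM at 80 dyne/cm2. All groups overlapped and the donors disagreed in direction in both comparisons. Log2 fold changes were -0.13 (SE 0.20) and 0.27 (SE 0.25), the latter carried by donor 2, whose level was 2.1-fold higher at 80 dyne/cm2 than in set 2. CEP112 overlaps AXIN2.

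TCF4 (ENSSSCG00000004535, chromosome 1, 104718809 to 105079919) encodes under this symbol the E-protein E2-2, a basic helix-loop-helix factor. The β-catenin partner that is often written TCF-4 is the product of TCF7L2. TCF4 stood at 303, 319 and 300 CPM at 2 dyne/cm2, 235, 287 and 230 CPM in set 1, 159, 285 and 212 CPM in set 2, and 145, 280 and 183 CPM at 80 dyne/cm2. All 3 cultures at 2 dyne/cm2 lay above the other 9, and those 9 were spread by donor, with donor 2 on top. The log2 fold change was 0.32 (SE 0.09) at 2 dyne/cm2 and -0.13 (SE 0.09) at 80 dyne/cm2, under the thresholds in both. TCF7L2 itself had log2 fold changes of 0.10 (SE 0.10) and -0.07 (SE 0.12).

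**Figure D2:**
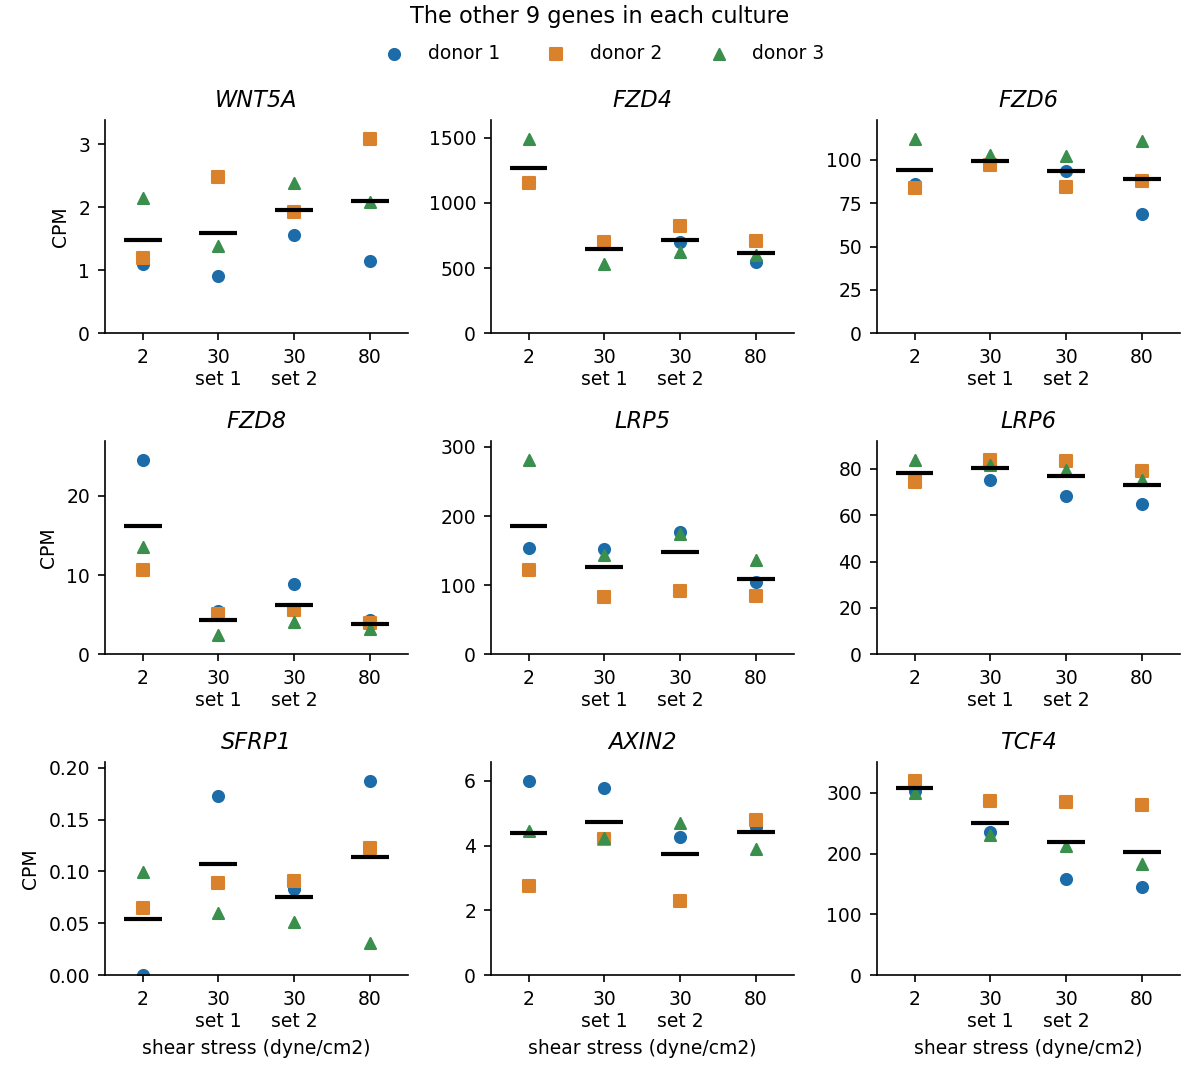
CPM (linear axes from 0) of the other 9 genes in the 12 cultures by shear stress (dyne/cm2), with 1 symbol per donor and black bars for the mean of 3 cultures. FZD4, FZD8 and TCF4 lie higher in all 3 cultures at 2 dyne/cm2 than in the other 9, whereas LRP6 stays between 65 and 83.8 CPM.

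Counted together, 9 of the 10 genes were tested in each comparison, and SFRP1 was not. At 2 dyne/cm2, FZD8 was called up, WNT9B was called down and 7 were not called, with a median log2 fold change of -0.02. Over all 11226 genes tested, 5.06% were called up and 4.54% down. At 80 dyne/cm2, WNT9B was called up and 8 were not called, with a median of -0.10, while 1.14% of 11187 genes were called up and 1.05% down. Nothing is read from these counts, since the genes were chosen on these comparisons. The sign of the log2 fold change was kept under all 10 alternatives in both comparisons for WNT9B, FZD4, FZD8, LRP5 and TCF4. It changed under at least 1 alternative for WNT5A, AXIN2, FZD6 and LRP6, except for LRP6 at 80 dyne/cm2, while FZD6 at 2 dyne/cm2 came to 0.

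**Figure D3:**
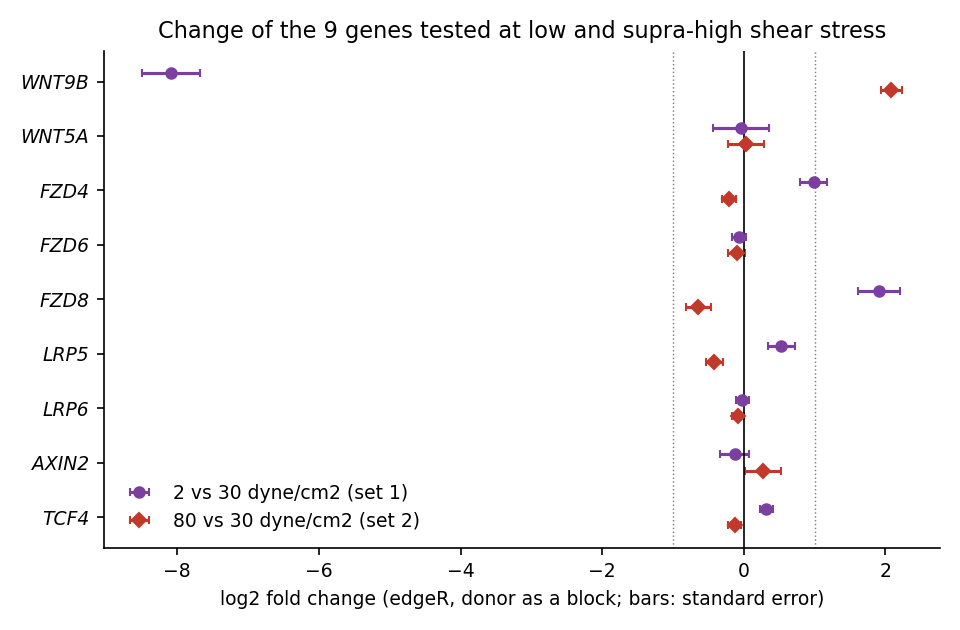
Log2 fold change with its standard error (bars) of the 9 genes tested, at 2 vs. 30 dyne/cm2 (circles, set 1 as control) and 80 vs. 30 dyne/cm2 (diamonds, set 2 as control), with dotted lines at a 2-fold change. WNT9B lies at -8.09 and 2.08, and FZD8 at 1.91 and -0.64.

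The responses to low and supra-high WSS were also set against each other, as the log2 fold change at 2 dyne/cm2 minus that at 80 dyne/cm2 in 1 fit over 12 libraries. This difference was -10.18 (SE 0.41) for WNT9B, 2.56 (SE 0.35) for FZD8, 1.22 (SE 0.23) for FZD4 and 0.97 (SE 0.24) for LRP5. These 4 of 9 genes had an adjusted p under 0.05, beside 37.1% of all 11568 genes tested. The difference is made of the values the genes were chosen on, so this count is no test of them and nothing is read from it. TCF4 had 0.46 (SE 0.22) and AXIN2 -0.40 (SE 0.36). WNT5A, FZD6 and LRP6 lay between -0.05 and 0.07.

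The 5 genes whose log2 level ran closest to that of WNT9B over the 12 libraries, among 9676 with a symbol and at least 50 reads on average, were SLK (Pearson r = 0.992), HYAL2 (0.99), ADAM15 (0.99), STK19 (0.987) and EPHB1 (0.987). The libraries share donors, and the low group at 2 dyne/cm2 stands apart for all 5, so the values of r are given as a description. The size of the change differed among these genes. For SLK, a STE20-like kinase, the log2 fold changes were -2.14 (SE 0.22) under low and 0.70 (SE 0.10) under supra-high WSS. HYAL2, a hyaluronidase, had -2.51 (SE 0.15) and 0.73 (SE 0.15), and ADAM15, a membrane metalloproteinase, had -3.27 (SE 0.31) and 0.97 (SE 0.20). EPHB1, a receptor of ephrin-B ligands, had -4.01 (SE 0.23) and 0.88 (SE 0.14), and STK19 had -0.76 (SE 0.09) and 0.27 (SE 0.10).

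A list of 102 other Wnt pathway genes was then read by role, of which 96 were in the table. At 0 reads in all libraries were 8 of them, and 57 were tested in each comparison. At 2 dyne/cm2, 7 of 57 were called up and 1 down (14% in all, beside 9.6% of all genes), with 33 higher and 24 lower and a median log2 fold change of 0.11 beside 0 for all genes. At 80 dyne/cm2 none was called up and 1 was called down (1.75%, beside 2.2% of all genes), with 23 higher and 34 lower and a median of -0.04 beside -0.01 for all genes. Of the smooth muscle and fibroblast markers, PDGFRB and PDGFRA were also called up at 2 dyne/cm2 (log2 fold changes 2.41 and 1.09). COL1A1 and LUM were not called (1.44 and -0.11), and ACTA2, MYH11, CNN1, TAGLN, DES and DCN were too low to be tested. The part of such cells in the counts of list genes was not tested.

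Most ligand genes of the list were not expressed at a level that could be tested. Of 17 ligands WNT4 was not found by symbol, and of the 16 in the table only WNT2B, WNT9A and WNT10B were. WNT2B, a ligand of the canonical branch, was called up at 2 dyne/cm2, where it stood at 39.7, 31.7 and 187 CPM against 22.8, 10.2 and 42.1 CPM in set 1. It stood at 15.8, 12.4 and 54.3 CPM in set 2 and 13.1, 7.42 and 33.2 CPM at 80 dyne/cm2. Donor 3 was highest in every group, and the groups overlapped between donors while each donor was highest at 2 and lowest at 80 dyne/cm2. Its log2 fold change was 1.55 at 2 dyne/cm2 (SE 0.27, adjusted p = 0.0195). Under supra-high WSS it was -0.58 (SE 0.12, adjusted p = 0.0312), under 2-fold. The call at 2 dyne/cm2 was lost without the replicate block (log2 fold change 1.81, SE 0.83) and without replicate 2 (1.5, SE 0.37). WNT9A and WNT10B were not called in either comparison, with log2 fold changes between -0.25 and 0.17.

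Of 14 receptors and co-receptors of the list, 10 were tested at 2 dyne/cm2, and FZD5 and RECK were called up (20%, beside 5.06% of all genes called up). The group is small and the list was chosen with earlier results of these data known, so nothing is read from that share. RECK, a membrane protein that helps to present certain Wnt ligands to Frizzled receptors and also inhibits matrix metalloproteinases, stood at 218, 207 and 344 CPM at 2 dyne/cm2 and 69.3, 96 and 50.8 CPM in set 1. It stood at 89.3, 93.4 and 71.4 CPM in set 2 and 48.9, 64.9 and 59.8 CPM at 80 dyne/cm2. The cultures at 2 dyne/cm2 lay far above all others. The rise of RECK under low WSS was 1.85 on the log2 scale (SE 0.33, adjusted p = 0.0203), and under supra-high WSS its change was -0.55 (SE 0.12, adjusted p = 0.0336), under 2-fold.

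The Frizzled gene FZD5 stood at 10.4, 9.58 and 8.19 CPM at 2 dyne/cm2 and 5.79, 3.51 and 3.45 CPM in set 1. It stood at 4.87, 4.46 and 3.79 CPM in set 2 and 3.2, 2.92 and 2.08 CPM at 80 dyne/cm2. Its cultures at 2 dyne/cm2 lay above, and those at 80 dyne/cm2 below, all cultures at 30 dyne/cm2. FZD5 had log2 fold changes of 1.19 (SE 0.17, adjusted p = 0.0126) and -0.69 (SE 0.16, adjusted p = 0.0433), the latter under 2-fold. FZD1, FZD2, FZD3 and FZD7 were not called, with log2 fold changes of -0.13 to 0.48 at 2 dyne/cm2 and -0.55 to 0.04 at 80 dyne/cm2.

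The planar polarity group held both ends of the range of called changes at 2 dyne/cm2. PRICKLE2, a cytoplasmic core protein of this branch, was called up at 2 dyne/cm2 and down at 80 dyne/cm2. It stood at 197, 68.1 and 300 CPM at 2 dyne/cm2 and 37.3, 22.3 and 40.4 CPM in set 1. It stood at 86.4, 20.7 and 57 CPM in set 2 and 28.7, 10.3 and 38.1 CPM at 80 dyne/cm2. Donor 2 was lowest in all 4 groups, and each donor was highest at 2 dyne/cm2. The log2 fold changes were 2.32 (SE 0.26, adjusted p = 0.00794) and -1.06 (SE 0.18, adjusted p = 0.015). The call at 80 dyne/cm2 was lost without the replicate block (-1.09, SE 0.63), without replicate 1 (-0.78, SE 0.13), with the dispersion of all 12 libraries (-1.10, SE 0.27) and against set 1 (-0.51, SE 0.20).

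PRICKLE1, its paralogue, was called up at 2 dyne/cm2, at 130, 118 and 165 CPM against 77.2, 57.3 and 48 CPM in set 1 (log2 fold change 1.20, SE 0.21, adjusted p = 0.0198). It stood at 111, 85.4 and 72.5 CPM in set 2, higher than in set 1 in all donors, and its log2 fold change against set 2 was 0.63 (SE 0.19), which was not called. The call was also lost without replicate 2 (1.28, SE 0.28) and without replicate 3 (0.91, SE 0.11). DAAM1, a formin that binds Dishevelled and acts on actin, was the 1 gene of the list called down at 2 dyne/cm2. It stood at 24.3, 19.4 and 15.9 CPM at 2 dyne/cm2 and 60.9, 44.2 and 36.9 CPM in set 1 (log2 fold change -1.23, SE 0.09, adjusted p = 0.00403). All its cultures at 2 dyne/cm2 lay below the other 9, and against set 2 the log2 fold change was -0.94 (SE 0.07), under 2-fold. Of 8 planar polarity genes tested, 3 were called at 2 dyne/cm2 (37.5%, beside 9.6% of all genes), and nothing particular to so small a group is read from that share.

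In the cytoplasmic group all 16 genes were tested and only APC2, a relative of the tumour suppressor APC, was called at 2 dyne/cm2. It stood at 6.94, 8.55 and 7.56 CPM against 3.29, 3.9 and 3.6 CPM in set 1 (log2 fold change 1.11, SE 0.14, adjusted p = 0.00922), and at 0.88 (SE 0.19, log2) against set 2 it was no longer called. Among 9 nuclear factors tested only TLE2, a co-repressor, was called, at 45.5, 47 and 69.3 CPM against 27.8, 24.5 and 27.7 CPM in set 1 (log2 fold change 1.00, SE 0.14, adjusted p = 0.012). TLE2 lay at the 2-fold threshold, and its call was lost with no filter, with filterByExpr, without replicate 3 and against set 2 (log2 fold changes 0.99, 0.99, 0.84 and 0.54).

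Target and feedback genes other than AXIN2 were mostly out of reach. Of 8 listed, NKD2 and SOX17 were not found by symbol. Of the 6 in the table, CCND1 and MYC could be tested and neither was called. CCND1, which encodes cyclin D1, had log2 fold changes of -0.69 (SE 0.14, adjusted p = 0.0278), under 2-fold, and 0.36 (SE 0.17, adjusted p = 0.241). Its mean level was 262 CPM at 2 dyne/cm2, 440 CPM in set 1 and 259 CPM in set 2, so that the lower level at 2 dyne/cm2 was seen against set 1 and not against set 2. MYC had 0.15 (SE 0.31) and -0.06 (SE 0.10). Both are also driven by growth signals outside the Wnt pathway. Among the ligand-processing, R-spondin and secreted inhibitor genes, log2 fold changes ran from -0.69 to 1.30 at 2 dyne/cm2 over 9 tested genes and from -0.65 to 0.39 at 80 dyne/cm2 over 8. In each comparison 1 gene had an adjusted p under 0.05 below 2-fold, KREMEN1, a receptor of Dickkopf inhibitors, at 0.88 (SE 0.17, adjusted p = 0.0252) and the secreted inhibitor WIF1 at -0.65 (SE 0.12, adjusted p = 0.0224).

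**Figure D4:**
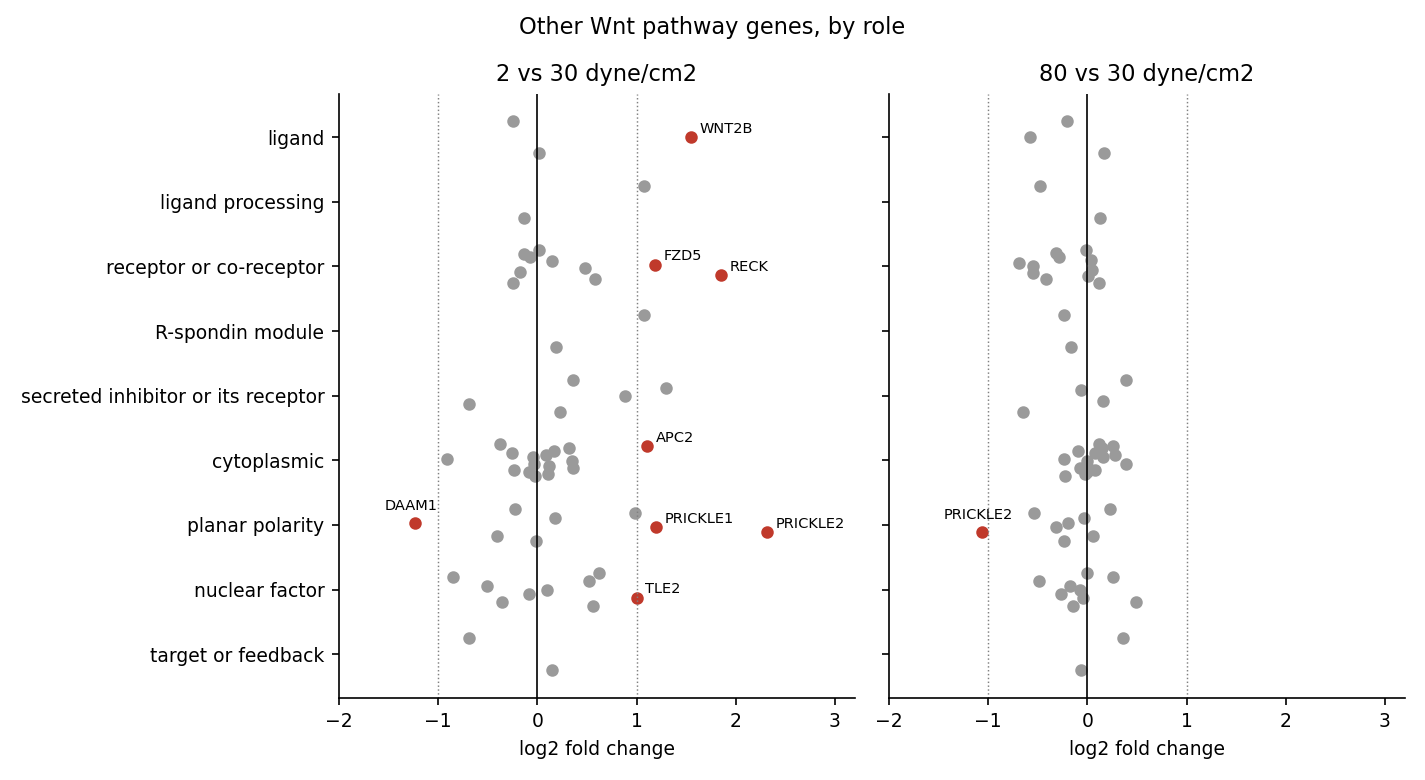
Log2 fold change of the tested genes of the 102-gene list by role, at 2 vs. 30 dyne/cm2 (left) and 80 vs. 30 dyne/cm2 (right), with called genes in red and named, the others in grey, and dotted lines at a 2-fold change. On the left 7 called genes lie above 0 and 1 below, and on the right the only call is PRICKLE2 at -1.06.

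Between the 2 sets at 30 dyne/cm2 none of the 57 tested list genes was called by edgeR's quasi-likelihood test, and 11 had an unadjusted p under 0.05. DESeq2 called none either, with 4 at an adjusted p under 0.05. Of 59 list genes tested for a difference between the 2 responses, 25 (42.4%) had an adjusted p under 0.05, beside the 37.1% of all genes. Of these, 16 were higher and 9 lower at 2 than at 80 dyne/cm2 relative to their controls. Without the replicate block 10 of 59 (16.9%) did so, beside 15.1% of all genes.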

How the data were processed

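Total RNA of 12 cultures was sequenced single-end. According to the study's methods, the authors used STAR and the Sscrofa11.1 genome, dropped reads that mapped to several places, merged the exons of protein coding isoforms into 1 model per gene and counted reads with featureCounts 1.4.6. The submitters' processing notes also name CASAVA 1.8.2. The deposited values are raw counts of 21153 genes, with totals of 29606854 to 41058902. Gene symbols and positions came from RefSeq tables of Sscrofa11.1.

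The 10 genes, the 102-gene list, the tests and the markers were chosen with earlier results of these data known. The quasi-likelihood test of edgeR 4.0.16 (R 4.3.3) was run on the counts after TMM normalization, with Benjamini-Hochberg adjustment. A gene was tested where 3 or more of the 6 libraries compared reached 1 CPM (3 of 12 for the difference between responses), in place of the authors' filter at 1 RPKM, since exon lengths were not used here. CPM are scaled by TMM. The standard error is the absolute log2 fold change over the root of F. The labels do not state which 30 dyne/cm2 set served which condition, and set 1 was paired with 2 dyne/cm2 and set 2 with 80 dyne/cm2 from the numbering of the samples.

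The replicate number marks the donor in the sample labels, and the donor was a block, as cultures were compared within donors in the study. After removal of group means, libraries sharing a number correlated at 0.67 to 0.88 (18 pairs, 11568 genes) and other libraries at -0.55 to -0.19 (36 pairs). The rule for named genes took the 10 genes, every list gene called in either comparison and the 5 genes closest to WNT9B (log2 CPM with a prior count of 2). Other list genes and markers were named after their values were seen. Of the list, WNT4, LGR6, TCF7L1, PYGO2, NKD2 and SOX17 were not found by symbol. Alternatives were no replicate block, relative log expression normalization, DESeq2 1.42.0, no filter, filterByExpr, each donor left out, dispersion from 12 libraries and the other control set. The procedure was tested on simulated data. With the donor block, each p-value sets a change against how far it varied among the 3 donors, with 1 culture per donor and group. Differences in level between donors were removed by the block, except in the refits without it.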

Additional observations from a re-analysis of the deposited data

Results flagged for a closer look

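For the 8 list genes called in either comparison, the log2 fold change at 2 dyne/cm2 minus that at 80 dyne/cm2 was tested over 12 libraries. All 8 differed between the responses at an adjusted p under 0.05 (edgeR's quasi-likelihood test), beside 37.1% of all 11568 genes tested. The 8 genes had been picked for a change in one of these comparisons, so the test is not independent of that choice. The difference was 3.41 for PRICKLE2 (SE 0.38, adjusted p = 0.000258), 2.44 for RECK (SE 0.36, adjusted p = 0.000967) and 2.14 for WNT2B (SE 0.30, adjusted p = 0.000807). It was 1.88 for FZD5 (SE 0.22, adjusted p = 0.000276), 1.56 for PRICKLE1 (SE 0.25, adjusted p = 0.00138) and 1.07 for TLE2 (SE 0.18, adjusted p = 0.00176). APC2 had 0.87 (SE 0.23, adjusted p = 0.0167) and DAAM1 had -1.04 (SE 0.16, adjusted p = 0.00124). For PRICKLE2, RECK, WNT2B and FZD5 the 2 responses had opposite signs with an adjusted p under 0.05 in each. Without the replicate block, WNT2B (adjusted p = 0.212) and DAAM1 (adjusted p = 0.0607) no longer passed.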

How the results depend on the processing

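Without the replicate block, 635 genes in place of 1078 were called at 2 dyne/cm2, 0 in place of 246 at 80 dyne/cm2 (929 at an unadjusted p under 0.05, edgeR) and 0 in place of 1 between the sets (473 unadjusted), and 1746 in place of 4294 differed between the responses. At 80 dyne/cm2 it left 0 of the 10 genes and 0 of the pathway list called, in place of 1 each (1 and 5 unadjusted). With the other control set, 24 genes were called at 80 dyne/cm2, 5 list genes in place of 8 under low WSS, and under supra-high WSS 0 of the list (11 unadjusted) and 0 of the 10 genes (2 unadjusted). With the dispersion of all 12 libraries, 136 genes were called at 80 dyne/cm2 and 0 between the sets (1605 unadjusted). Of the list 0 were called at 80 dyne/cm2 (16 unadjusted, and 1 at an adjusted p under 0.05 but under 2-fold). DESeq2 gave 66 calls between the sets and 236 at 80 dyne/cm2. No filter gave 46 between the sets and 3 of the list at 80 dyne/cm2, and filterByExpr gave 2. Leaving out each donor in turn gave 144 to 343 calls at 80 dyne/cm2, 0 to 122 between the sets, 0 to 1 of the list at 80 dyne/cm2 and 1949 to 3299 differences. The 80 dyne/cm2 count was lowest without replicate 3 and the number of differences too. Without replicate 1 there were 0 calls between the sets (1044 unadjusted), and without replicate 2 there were 122. The 0 of the list also came without replicate 1 (17 unadjusted). There 12 list genes had an adjusted p under 0.05 (edgeR) and missed the 2-fold threshold only. Of 493 refits of 51 single-gene values, 475 kept their call or lack of one, 17 lost it, 1 gained it and 0 reversed, while 14 uncalled values changed sign. The cause of these shifts was not tested. The WNT9B log2 fold change at 2 dyne/cm2 varied by donor (-7.8, -7.02 and -9.24), with 75.1 to 380 CPM in set 1. With 3 donors this spread limits its precision, and the 18 to 26 WNT9B reads at 2 dyne/cm2 add counting error. The inhibitor SFRP1 and most ligand genes of the list lie below what this depth resolves.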

Other observations

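The β-catenin gene and genes of 3 proteins that work with it in the nucleus differed between the responses to low and supra-high WSS. They were chosen after their values were seen. Of all 11568 genes tested, 37.1% passed the same test (adjusted p under 0.05). So did 5 of 9 nuclear factor genes of the list (55.6%) and 6 of 16 cytoplasmic genes (37.5%). Nothing particular to β-catenin is read from these genes. TCF7 and TCF7L2 did not pass, with differences of -0.27 (SE 0.44) and 0.18 (SE 0.16). CTNNB1, the β-catenin gene, stood at 1060 ± 117 CPM at 2 dyne/cm2 and at 2010 ± 215 CPM in set 1, 1970 ± 221 CPM in set 2 and 1690 ± 259 CPM at 80 dyne/cm2 (SD, n = 3). Its log2 fold change at 2 dyne/cm2 was -0.91 (SE 0.11, adjusted p = 0.0092, edgeR), a 1.88-fold lower level. β-catenin is also a part of adherens junctions. BCL9L, a co-activator of β-catenin, was at 88.8 ± 9.77 CPM at 2 dyne/cm2, 162 ± 23.7 CPM in set 1, 155 ± 13.5 CPM in set 2 and 187 ± 30.1 CPM at 80 dyne/cm2, with -0.85 as its log2 fold change under low WSS (SE 0.08, adjusted p = 0.00615). The difference between the 2 responses was -0.67 for CTNNB1 (SE 0.13, adjusted p = 0.00436) and -1.10 for BCL9L (SE 0.20, adjusted p = 0.0024). BCL9, the paralogue of BCL9L, was at 43 ± 10 CPM at 2 dyne/cm2 and 27.8 ± 2.59 CPM in set 1, with 0.62 as its log2 fold change under low WSS (SE 0.14, adjusted p = 0.0334) and a difference of 0.64 (SE 0.16, adjusted p = 0.0117), opposite in sign to BCL9L. PYGO1, which binds BCL9 proteins, also had a positive difference, of 1.02 (SE 0.22, adjusted p = 0.00666). It was at 6.5 ± 0.814 CPM at 2 dyne/cm2, 4.66 ± 1.23 CPM in set 1, 4.97 ± 0.71 CPM in set 2 and 3.55 ± 0.596 CPM at 80 dyne/cm2. Its log2 fold changes of 0.52 (SE 0.19) under low and -0.49 (SE 0.16) under supra-high WSS did not pass the threshold on the adjusted p.

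Of the receptor genes outside the Frizzled family, RYK, which binds Wnt ligands without a Frizzled receptor, stood at 119 ± 10.4 CPM at 2 dyne/cm2, 80.4 ± 11.4 and 80.2 ± 14.2 CPM in sets 1 and 2 and 59.5 ± 4.54 CPM at 80 dyne/cm2. Its log2 fold changes were 0.58 (SE 0.12, adjusted p = 0.0302) and -0.42 (SE 0.09, adjusted p = 0.0376), both under 2-fold, and their difference was 1.02 (SE 0.16, adjusted p = 0.00138). PORCN, the enzyme that attaches the lipid to Wnt ligands, had a difference of 1.59 (SE 0.41, adjusted p = 0.0151) at 55 to 221 reads per library. Its log2 fold changes of 1.08 (SE 0.37) under low and -0.48 (SE 0.18) under supra-high WSS did not pass the threshold on the adjusted p. Of all genes tested, 37.1% had an adjusted p under 0.05 for such a difference.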
